A study of Homo sapiens with 4 samples.

Results

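The replication-dependent histone genes of the large cluster on chromosome 6, with the small cluster on chromosome 1, were followed in ribosome footprint counts of human fibroblasts. Members were taken by position and size alone, in the hg19 coordinates of the deposited tables, as annotated genes of 250 to 900 exonic bases that begin in 1 of 3 windows on chromosome 6 or in 1 window on chromosome 1. This gave 59 of the 57820 annotated features. On chromosome 6, 32 started from 26017260 to 26273144, 3 from 27090436 to 27114861 and 17 from 27774853 to 27861203, and on chromosome 1, 7 started from 149784826 to 149859019. In all, 40 members had 40 or more counts when the libraries were added up, all of them on chromosome 6, and they are described one by one or in ranges below. The other 19 members had 0 to 3 counts each in all 4 libraries together, and 14 of them had 0 in every library.

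The cells were BJ-Ras-ER fibroblasts, human BJ foreskin fibroblasts immortalised with hTERT that carry an H-RasV12 oncogene fused to the oestrogen receptor, so that 4-hydroxytamoxifen switches Ras on. Oncogene-induced senescence (OIS) was brought on with 100 nM 4-hydroxytamoxifen for 12 days, and proliferating cells of the same line, carrying the same transgene, were left without it. Each state was then given DMSO, the solvent, or 10 µM GC7 for 18 h. GC7 inhibits deoxyhypusine synthase, the enzyme that starts the hypusination of the translation factor eIF5A. One library was made per condition from a single cell line, so that there is no replicate of any condition. The treatment entry of the labels contradicts the title for the proliferating GC7 library and for the OIS DMSO library. The titles were followed, and they match the alignment names kept in the file headers. With the entries in their place, GC7 and the senescent state could not be told apart. The share of counts on mitochondrial features was 2.89% and 12.2% in the libraries titled DMSO and 0.0281% and 0.141% in those titled GC7, for proliferating and OIS cells in that order. Total counts ran from 3039026 to 6553835 per library.

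Replication-dependent histone genes encode the core histones H2A, H2B, H3 and H4 and the linker histone H1. Their transcripts are mostly made in S phase, lack introns, and end in a stem-loop in place of a poly(A) tail. A cell that does not copy its DNA needs few of them, and loss of these transcripts is a known mark of cells that have left the cycle. The tables carry Ensembl identifiers without symbols, and the RefSeq gene table at hand, of another build, matched 0 of them. No histone type was therefore assigned to a member, members are named by their hg19 start, and the label rests on position, size and gene structure. Of the 40 members, 35 had a single exon, 30 of them 357 to 573 bases long and 5 of them 732 to 790 bases long, and 5 had 2 exons and 820 to 898 bases. The plus strand held 18 and the minus strand 22. Lists of cell cycle, senescence and fibroblast marker genes were not analysed here for want of symbols, so the cell states were not checked against markers.

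The regulatory sequence that such genes share can be read from the promoters of the histone genes that RefSeq names on chromosome 6, in build GRCh38.p14, although these were not paired with the hg19 members. The 5 stretches printed here, 1 for each histone type, are the 150 bases before the annotated start, 5′ to 3′ on the strand of the gene, and show the motifs by which the types differ. Capitals mark matches on either strand. The motifs are the TATA box (TATAAA), the box named by its letters CCAAT, the octamer (ATTTGCAT) and the H1 box (AAACACA). The stretches are chr6:26156179-26156328 on the plus strand and, on the minus strand, chr6:26033619-26033768, chr6:26216689-26216838, chr6:26032100-26032249 and chr6:26027284-26027433.
H1-4: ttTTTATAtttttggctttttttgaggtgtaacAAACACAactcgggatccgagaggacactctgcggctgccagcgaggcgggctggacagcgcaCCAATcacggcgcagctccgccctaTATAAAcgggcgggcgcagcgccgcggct
H2AC4: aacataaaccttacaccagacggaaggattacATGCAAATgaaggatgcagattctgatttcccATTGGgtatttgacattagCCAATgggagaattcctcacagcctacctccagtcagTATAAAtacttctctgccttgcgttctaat
H2BC8: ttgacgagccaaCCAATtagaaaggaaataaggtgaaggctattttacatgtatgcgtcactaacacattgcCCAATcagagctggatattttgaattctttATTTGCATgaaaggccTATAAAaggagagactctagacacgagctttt
H3C2: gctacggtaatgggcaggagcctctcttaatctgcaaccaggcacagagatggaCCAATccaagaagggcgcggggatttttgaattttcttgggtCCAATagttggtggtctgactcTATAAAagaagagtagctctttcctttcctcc
H4C2: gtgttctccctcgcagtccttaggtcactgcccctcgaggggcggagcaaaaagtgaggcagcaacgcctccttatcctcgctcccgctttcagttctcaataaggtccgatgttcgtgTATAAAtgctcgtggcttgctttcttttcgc
All 5 carry a TATA box whose first base lies 29 to 32 bases before the start, and H1-4 has another match on the opposite strand far upstream. The H1-4 stretch alone holds the H1 box, the H2AC4 and H2BC8 stretches hold the octamer, and the H4C2 stretch lacks the CCAAT box that the other 4 have.

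The same motifs were counted, on both strands, in windows of 250 bases before to 50 after the start of 54 RefSeq promoters of 50 such genes on chromosome 6, and in all 35116 promoters of the table. No match of one motif overlapped that of another in the histone promoters. The TATA box was present in 66.7% of the histone promoters and 11.5% of all promoters. The CCAAT box was found in all 6 H1, 11 H2A, 17 H2B and 10 H3 promoters but in 3 of 10 H4 promoters, against 34.6% of all promoters. The octamer, the motif to which OCT1 binds, was found in 13 of 17 H2B and 9 of 11 H2A promoters, in 1 of 10 H3 promoters and in no H1 or H4 promoter, against 1.77% of all promoters. The H1 box, known from linker histone genes, was found in all 6 H1 promoters and in none of the core histone promoters, against 5.64% of all promoters. Some of these promoters are shared by alternative starts of 1 gene or lie head to head, so they are not independent, and a match is a description of letters and not of a bound site.

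**Figure D1:**
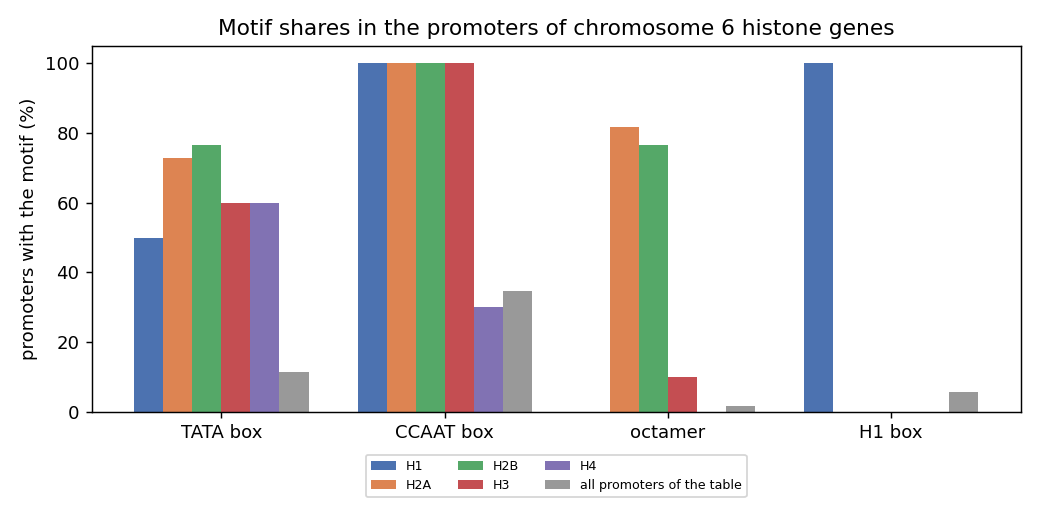
Share of promoters (%, vertical axis) with at least 1 match to each of 4 motifs on either strand, for the 5 histone types on chromosome 6 (coloured bars; 6 H1, 11 H2A, 17 H2B, 10 H3 and 10 H4 promoters) and for all 35116 RefSeq promoters of the table (grey bars). The H1 box reaches 100% in H1 promoters and 5.64% in all promoters, and the octamer stands high in H2A and H2B promoters only.

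Footprints on the members made up about 1% of all counts in proliferating cells and far less in OIS cells. The 59 members together held 41820 counts in proliferating cells with DMSO, 70614 in proliferating cells with GC7, 4489 in OIS cells with DMSO and 13555 in OIS cells with GC7. These are 0.967% (95% exact binomial interval 0.958 to 0.977), 1.08% (1.07 to 1.09), 0.148% (0.143 to 0.152) and 0.279% (0.274 to 0.284) of the library totals. Both OIS libraries lay below both proliferating libraries, and the 4 intervals did not overlap. All intervals here cover counting error only, and reads may not be independent molecules. Footprints rise both with the amount of an mRNA and with its occupancy by ribosomes, and fewer cells of a kind cannot be told apart from less RNA per cell in such bulk samples.

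Levels of single members spanned more than an order of magnitude. As CPM (counts divided by the library total, on a common scale) per kilobase of exon, the median level of the 40 members was 368 in proliferating cells with DMSO (range 33.7 to 1468), 437 with GC7 (62.3 to 1424), 57.0 in OIS cells with DMSO (6.76 to 170) and 103 in OIS cells with GC7 (12.3 to 333). The member at 26031817 had the highest level in every library, at 1468, 1424, 170 and 333 in the same order. The member at 27860477 had the lowest in each, and its reads lie in a gene model that shares 346 exonic bases with the 2-exon member at 27858093, so that the authors' counting may have left part of them out. The order of the members was much the same in all libraries. Spearman correlations of the per-kilobase level over the 40 members, between pairs of libraries, ran from 0.858 to 0.976. The levels of a member in a pair are divided by the same gene length. In each of the 40, both OIS levels lay below both proliferating levels, as the plot of levels along the chromosome shows. The share of all tested features with this pattern was not counted, here or for the counts of single members below. These levels are scaled to library totals. Under that scaling the median log2 ratio of OIS to proliferating cells over all tested features was -0.54 in DMSO and -0.24 with GC7.

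**Figure D2:**
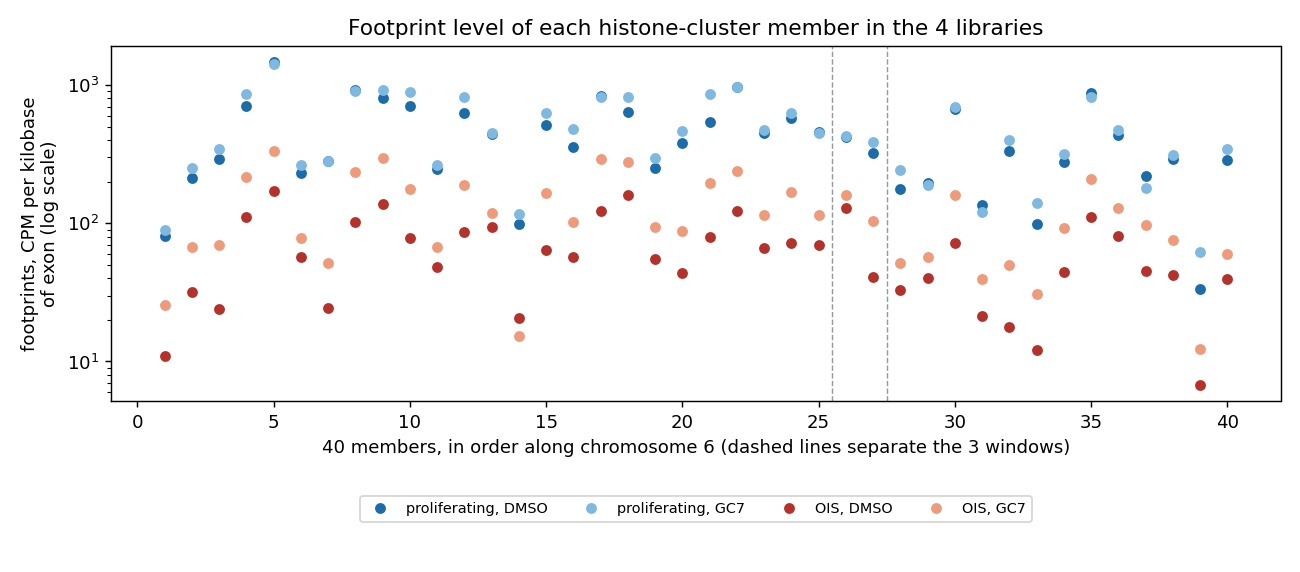
Footprint level of each of the 40 members (CPM per kilobase of exon, log scale, vertical axis), in their order along chromosome 6 (horizontal axis), with 1 point per library and colours for the 4 libraries. In every column the 2 OIS points (red and salmon) lie below the 2 proliferating points (dark and light blue).

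The chromosome 1 members had no counts. Its 7 members had 0 counts in all 4 libraries. A limit of 3 counts was taken for a 0 in each member. That is a share of 9.87e-05% of the counts in the shallowest library and 4.58e-05% in the deepest. This limit covers counting error only and is not the exact interval used elsewhere. Of the 7, 1 lies wholly within the exons of another feature and 1 shares 27 bases with another, and reads that match several gene copies may not have been counted, so a 0 may not be an absence of footprints. At the edges of the size rule, a chromosome 6 gene of 1034 bases starting at 26281283 fell just outside with 1869, 3254, 194 and 699 counts (proliferating DMSO, proliferating GC7, OIS DMSO and OIS GC7, the order used for counts from here on). One of 1100 bases starting at 27093676 had 1056, 1565, 111 and 354. The longest members just inside, of 898 and 865 bases, had 1708, 2633, 255 and 520 counts and 1330, 2710, 151 and 432 counts. Members of 265 and 292 bases just inside the lower limit had at most 1 count, and features of 206 and 223 bases just outside it had 0. In all, 9 genes with at least 40 counts began in the windows but were too long for the rule, and 8 of them had lower ratios in OIS cells in both treatments. The exception was a 5-exon gene of 5675 bases starting at 26087509, with 128, 181, 93 and 194 counts and log2 ratios of 0.57 in DMSO and 0.75 with GC7. Of the 11128 tested nuclear features, 5639 had a ratio below 0 in DMSO and 5640 with GC7. The share below 0 in both treatments was not counted.

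OIS cells were compared with proliferating cells first in DMSO. After TMM scaling (trimmed mean of M-values, which sets library sizes by the bulk of the features), each of the 40 members was lower in OIS cells. The log2 ratios had a median of -2.22, a fall of 4.65-fold, and ran from -3.66 to -1.16. Called lower here means at least 2-fold, with the 95% exact counting interval clear of equal levels. By this rule 40 of 40 members were lower and none was higher, beside 12.6% of the 11128 tested nuclear features called lower and 14% called higher, and a median of -0.02 over all of them. Of the 40, 31 were among the lowest 5% of all tested features, at or below -1.80. Summed over the members, the log2 ratio was -2.18 (95% interval -2.22 to -2.13), a fall of 4.53-fold. There is no replicate check on any of these ratios.

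The deepest fall was that of the member at 27782822 (27782822 to 27783267, plus strand, ENSG00000196374.5), with 640, 1176, 24 and 109 counts. Both OIS counts lay far below the proliferating ones, and the log2 ratio in DMSO was -3.66 (-4.35 to -3.11). Next came the member at 26021907 (26021907 to 26022278, plus strand, ENSG00000196176.7), with 470, 837, 27 and 125 counts and a ratio of -3.05 (-3.70 to -2.52). Both are single-exon genes of 446 and 372 bases. At the other end stood the 2-exon member at 27106073 (27106073 to 27114619, minus strand), which had 1494, 2288, 324 and 637 counts and the shallowest fall, -1.16 (-1.34 to -0.99). The member at 26217165 (26217165 to 26217711, plus strand) had 1513, 2964, 265 and 740 counts and a ratio of -1.47 (-1.67 to -1.28). In each of the 4 the OIS and proliferating counts did not overlap, and the intervals of the deepest and the shallowest pair did not overlap.

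The 6 members with most footprints spread from deeper than the median to near the shallow end, where the member at 26217165, given above, is 1 of them. The member at 26031817 (to 26032288, minus strand), the highest per kilobase, had 2995, 4404, 244 and 763 counts and a log2 ratio in DMSO of -2.57. The member at 26055968 (to 26056699, minus strand, 732 bases) had 2537, 4437, 307 and 1061 counts and a fall of 4.01-fold. The member at 27834570 (to 27835359, minus strand, 790 bases) had 2972, 4246, 266 and 807 counts and a ratio of -2.44. These 3 had the largest sums over the 4 libraries. The member at 26156559 (to 26157343, plus strand, 785 bases) had 2146, 4248, 207 and 717 counts and a ratio of -2.33. The member at 26250370 (to 26250835, minus strand) had 1964, 2970, 173 and 538 counts and a ratio of -2.46. For all 6 the higher OIS count, that with GC7, was still below the lower proliferating count.

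With GC7 in both states the same comparison gave smaller ratios. The median over the 40 members was -1.74, a fall of 3.34-fold, with ratios from -2.76 to -0.65, and the summed counts gave -1.72 (-1.75 to -1.70), a fall of 3.30-fold. Of the 40, 39 were called lower and none higher, beside 11.6% of all tested features called lower and 12% called higher. All 40 intervals lay below 0, beside 3479 of the 11128 tested features. The member not called was that at 27840926 (to 27841289, minus strand, 364 bases), with 344, 426, 50 and 172 counts and a ratio of -0.65 (-0.91 to -0.39) with GC7 against -1.73 in DMSO. The lowest ratios with GC7 were again that of the member at 27782822, -2.76 (-3.07 to -2.49), and that of the member at 26183958 (to 26184454, plus strand), -2.69 (-3.24 to -2.22). The latter had 212, 383, 31 and 37 counts. The 2 comparisons share no library, and their ratios over the 40 members had a Spearman correlation of 0.510 and a Pearson correlation of 0.551, against 0.719 and 0.773 over all tested features, whose ratios span both directions.

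**Figure D3:**
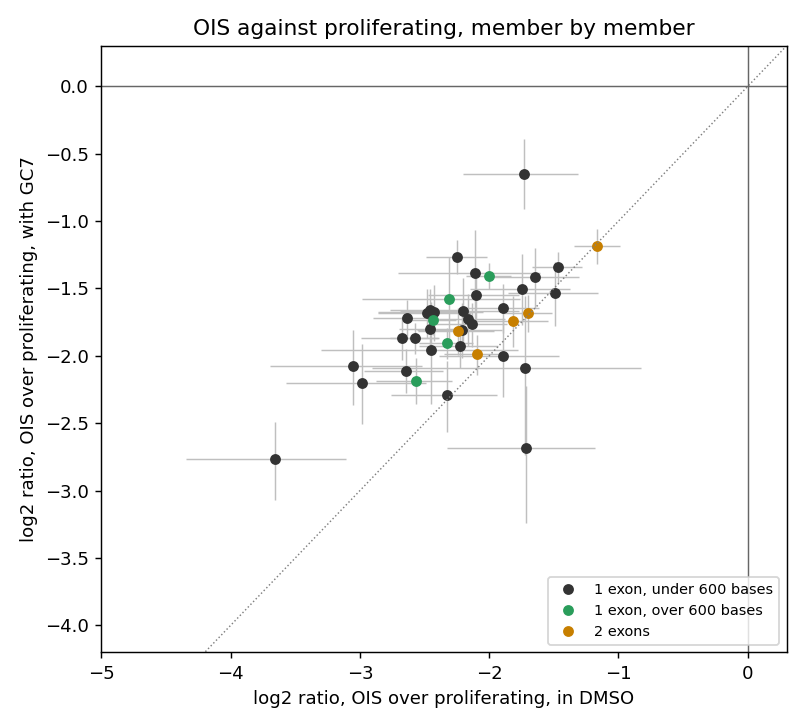
Log2 ratio of OIS over proliferating cells in DMSO (horizontal axis) and with GC7 (vertical axis) for each of the 40 members, coloured by gene structure, with 95% counting intervals as grey bars and the line of equal ratios dotted. All 40 points lie below and to the left of 0, between -3.66 and -1.16 in DMSO and between -2.76 and -0.65 with GC7, and most lie above the line of equal ratios.

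The fall was seen in each kind of gene model. Single-exon members of 357 to 573 bases had median ratios of -2.22 in DMSO and -1.75 with GC7, those of 732 to 790 bases -2.33 and -1.74, and members with 2 exons -1.82 and -1.74. These medians rest on 30, 5 and 5 genes, and their difference was not tested. Of 113 other nuclear features of 250 to 900 bases with enough counts, the medians were -0.22 in DMSO and 0.03 with GC7. Of these, 22 were called lower and 17 higher in DMSO, and 16 lower and 20 higher with GC7. The part of gene length in the members' ratios was not tested.

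Histone genes often lie head to head, the starts of 2 genes sharing the stretch between them. Among the 40 members, 6 such pairs had a minus-strand gene followed by a plus-strand gene with 189 to 318 bases between the annotated ends, and 2 of the pairs involve the overlapping gene models at 27858093 and 27860477. Between the members of a pair, the intervals of the ratios were apart in 3 of 6 pairs in DMSO and in 3 of 6 with GC7. Across 214 bases, the member at 27782112 (to 27782607), with 289, 393, 32 and 95 counts, had ratios of -2.11 in DMSO and -1.38 with GC7, while its neighbour at 27782822 had -3.66 and -2.76, and the intervals were apart in both treatments. Across 241 bases, the 2-exon member at 27106073 had -1.16 and -1.18 and its neighbour at 27114861 had -2.43 and -1.67, again with the intervals apart in both. The pair at 26216428 and 26217165 differed in DMSO, with -2.25 and -1.47, but had overlapping intervals with GC7, at -1.26 and -1.34. The pair at 27775257 and 27775899 had overlapping intervals in both treatments, with -1.90 and -1.74 in DMSO. The member at 27861203, in both pairs with the overlapping gene models, had -2.33 and -2.29, beside -2.24 and -1.82 for the member at 27858093, with the intervals apart with GC7 only, and -1.72 and -2.09 for the member at 27860477, with overlapping intervals. Single-gene values here have no replicate, so the spread between libraries behind these differences is unknown.

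GC7 was compared with DMSO within each state. In proliferating cells the members' ratios stayed within 2-fold. The median log2 ratio was 0.13 (range -0.36 to 0.81). Above 0 lay 27 members and below it 13, beside 5758 and 5365 of the 11128 tested features. The whole counting interval lay above 0 in 18 and below 0 in 4, beside 2234 and 2156 of the 11128. None of the 40 was called in either direction, beside 3.46% of all tested features called higher and 2.08% called lower. The summed counts gave a ratio of 0.09 (0.07 to 0.11). The highest ratios were 0.81 for the member at 27860477 (to 27860963), which had 71, 199, 10 and 29 counts, and 0.61 for the member at 26240561 (to 26240976), which had 976, 2367, 101 and 393. The lowest were -0.36 for the member at 27840926 and -0.22 for the member at 27782112.

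In OIS cells most members had more footprints with GC7 than with DMSO. The median log2 ratio was 0.60, or 1.51-fold, over a range of -0.77 to 1.14, and 37 of the 40 lay above 0, beside 50.9% of all tested features. The whole counting interval lay above 0 in 29 and below 0 in 1, beside 15.3% and 18% of all tested features. The summed counts gave 0.55 (0.50 to 0.60), or 1.46-fold. Among 113 other nuclear features of 250 to 900 bases, the median was 0.24, and 74 lay above 0 and 39 below. Their intervals lay above 0 in 36 and below 0 in 10, and 14 were called higher and 6 lower. Only 3 members reached 2-fold and were called higher and none was called lower, beside 3.53% and 2.75% of all tested features, whose median was 0.01. The 3 were the member at 26021907, from 27 to 125 counts with a ratio of 1.14 (0.55 to 1.82), the member at 27782822, from 24 to 109 with 1.11 (0.49 to 1.84), and the member at 26188938, from 71 to 298 with 1.01 (0.64 to 1.42). The first and the second are also the members with the lowest ratios of OIS to proliferating cells in DMSO, and both comparisons use the same OIS DMSO library, so that a low count there lowers one ratio and raises the other.

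The number called in OIS cells depended on the scaling. Scaled to the total of tested nuclear counts in place of TMM, 10 members were called higher, beside 5.84% of all tested features. Scaled to the whole library, mitochondrial counts included, 18 were, beside 9.32%. Under these scalings the median of all tested features moved to 0.19 and 0.38, and the share of higher among all called features moved from 56.2% to 77.7% and 90.7%. The mitochondrial share was 12.2% in OIS cells with DMSO and 0.141% with GC7. The part of this difference in the members' ratios was not tested. Under each scaling the members' median stayed above that of all tested features.

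The member at 26183958 went the other way, from 31 to 37 counts in libraries that differ in depth, with a ratio of -0.77 (-1.52 to -0.06). Under total-count scaling it had -0.59 (-1.33 to 0.13), an interval that includes equal levels. The 2-exon member at 27106073 had a ratio of -0.07 (-0.27 to 0.12), an interval that includes equal levels, and 0.11 under total-count scaling. By gene structure, the medians with GC7 in OIS cells were 0.64 for the short single-exon members, 0.74 for the longer ones and 0.11 for those with 2 exons. In proliferating cells they were 0.14, 0.14 and 0.04. The ratio in OIS cells was above that in proliferating cells in 35 of 40 members, by a median of 0.47, while 49.1% of all tested features had such a difference above 0. With 1 library per condition this difference between the states could not be tested. The difference rearranges the same counts as the smaller falls of OIS against proliferating cells with GC7, so they are not separate results.

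**Figure D4:**
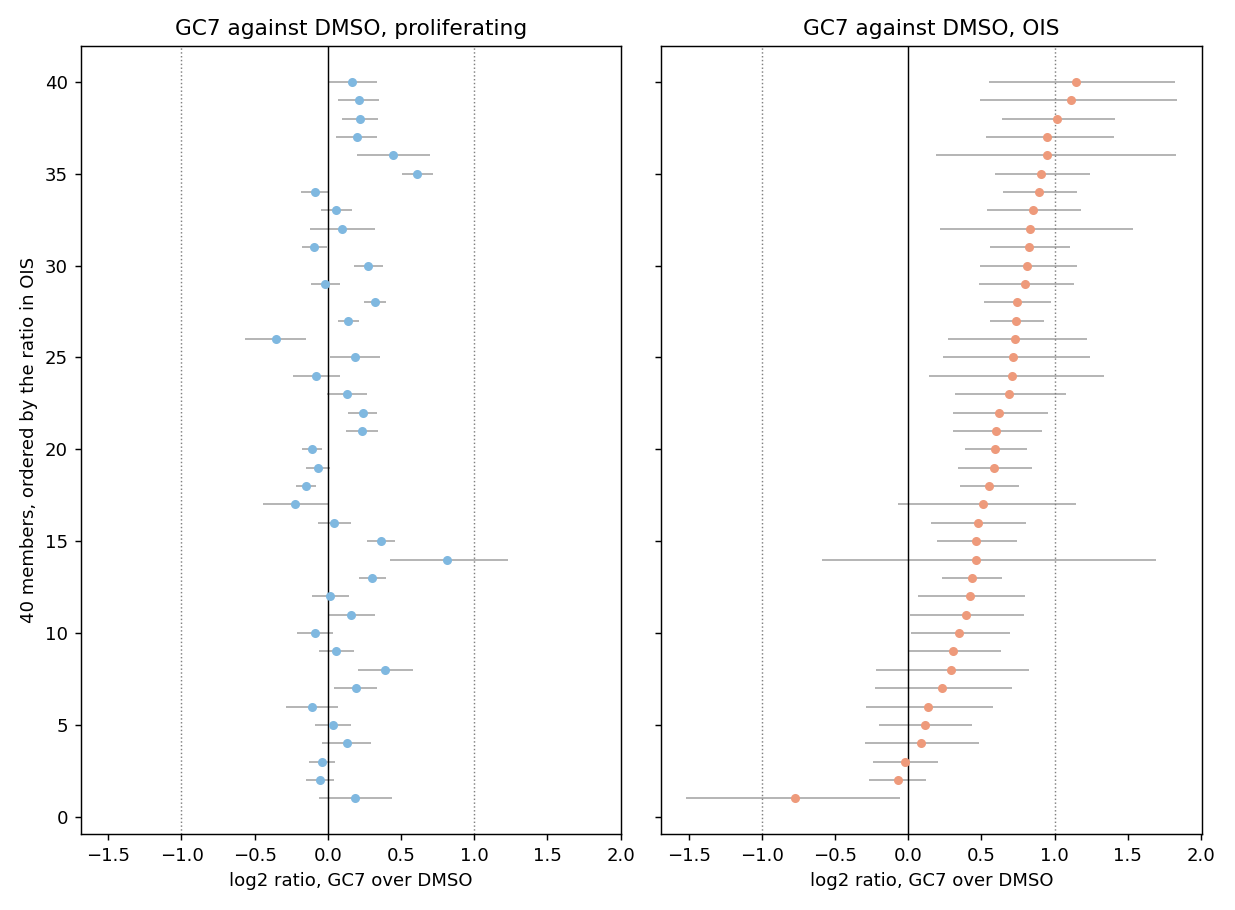
Log2 ratio of GC7 over DMSO (horizontal axes) for each of the 40 members in proliferating cells (left) and OIS cells (right), ordered on both sides by the ratio in OIS cells, with 95% counting intervals and dotted lines at 2-fold. In proliferating cells no point passes 2-fold, and in OIS cells 37 of 40 points lie above 0 and 3 lie above the 2-fold line.

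Over the 4 libraries in an additive model of state and treatment, with edgeR's quasi-likelihood test, all 40 members were lower in OIS cells. Their log2 changes ran from -3.13 to -1.13 with a median of -2.01, and the Benjamini-Hochberg adjusted p over the 11128 tested features ran from 3.06e-06 to 0.00516, beside 14.5% of all tested features called lower and 18% called higher at an adjusted p under 0.05. The smallest adjusted p was that of the member at 27782822 and the largest that of the member at 27840926. For treatment, 0 of 40 members were called, beside 0.144% of all tested features called higher and 0.243% called lower. The members' median change with GC7 was 0.35, and the smallest adjusted p was 0.231. Above 0 lay 36 of 40 members, beside 5717 of the 11128 tested features. At an unadjusted p under 0.05, 7 of 40 members were higher and none lower by edgeR, beside 4.64% and 5.02% of all tested features. By DESeq2 1 was higher and none lower, beside 1.27% and 2.11%. With 1 residual degree of freedom, chance variation of a library and a state-dependent response to GC7 cannot be told apart in this model, and no p-value here has replicate libraries behind it.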

How the data were processed

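Ribosome footprints were counted in 4 libraries, 1 per condition. Alignment by the authors used STAR (version 2.5.3a) and hg19, and gene counting used featureCounts (version 1.5.1) with a GENCODE annotation, and the counts were deposited as whole numbers without normalization. How strand, multi-mapped reads and overlapping genes were handled is not stated in the headers. Reads of near-identical histone genes may thus have been split or dropped.

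Tests covered the 11128 nuclear features whose counts added up to 40 or more, mitochondrial ones were left out of the scaling, and library sizes were scaled by TMM (edgeR version 4.0.16, R version 4.3.3). Log2 ratios of library pairs used a prior count of 1 and 95% exact binomial (Clopper-Pearson) intervals, and a call needed 2-fold and an interval clear of 0. The additive model used edgeR's quasi-likelihood test with Benjamini-Hochberg adjustment over all tested features, and DESeq2 (version 1.42.0) as an alternative. Scripts were tested on simulated data. Named members were the 6 with most counts and the 2 highest and 2 lowest ratios of each pair comparison. Others are named where a count of 5 or fewer or a head-to-head pair called for it, after their values were seen. Members and lists were chosen with earlier results of these data known. Promoters came from RefSeq tables of build GRCh38.p14. Gene lists that need symbols were not analysed here.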

Additional observations from a re-analysis of the deposited data

Results flagged for a closer look

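Under TMM scaling, 4 members had a counting interval of GC7 over DMSO wholly below 0 in proliferating cells. In OIS cells the interval of each of these lay wholly above 0. Members with an interval that included 0 in either state were not counted, whatever the sign of their ratios. The log2 ratios were -0.11 in proliferating and 0.60 in OIS cells for the member at 26031817, -0.093 and 0.83 for the member at 26045639, -0.15 and 0.55 for the member at 27834570, and -0.36 and 0.73 for the member at 27840926. No member showed the opposite pattern with both intervals clear of 0. By ratio alone the member at 26183958 did, with 0.19 (-0.06 to 0.44) in proliferating and -0.77 (-1.52 to -0.06) in OIS cells. The share of all tested features with either pattern was not counted, so these counts have no background beside them. In proliferating cells, the intervals of the members at 26031817 and 26045639 ended near 0, at -0.043 and -0.007. Total-count and whole-library scaling moved the summed ratio there from 0.09 to 0.11 and 0.16, so such intervals need not stay clear of 0. Each value compares 1 library with 1 library, and the difference between the states was not tested.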

How the results depend on the processing

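All 40 members stayed below 0 in both comparisons of OIS with proliferating cells under every scaling, prior count and fold limit tried, and no ratio whose counting interval was clear of 0 changed direction. The member at 27106073, whose interval for GC7 in OIS cells included 0, moved there from -0.07 to 0.11 under total-count scaling, and members above 0 in that comparison numbered 37 to 39 over the 4 other scalings. Of the recomputed counts of calls and summed ratios, 111 stayed within 1.5 times of a count or within the counting interval of a ratio, and 21 moved. Of the ratios of single named members, 152 stayed and 16 moved. Scaling to the total of tested nuclear counts, to the whole library and by upper quartile gave summed log2 ratios of OIS to proliferating cells of -2.57, -2.71 and -2.29 in DMSO and -1.95, -1.95 and -1.80 with GC7, 0.11, 0.16 and 0.11 in proliferating cells given GC7, and 0.73, 0.92 and 0.60 in OIS cells given GC7. The median of all tested features moved to -0.40, -0.54 and -0.13 in the first, to -0.24 and -0.24 under the first and second scaling in the second, and to 0.19 and 0.38 in the last. Under the total-count and whole-library scalings, the share of higher among called features moved from 52.8% to 27.5% and 19.9% between the states in DMSO, and from 50.9% to 33.8% and 33.6% with GC7. With single-exon members only, the sums gave -2.28 in DMSO and 0.64 for GC7 in OIS cells. In OIS cells, the members called higher with GC7 numbered 10, 18 and 5 under the 3 scalings and 22 at a 1.5-fold limit, beside 5.84%, 9.32%, 4.03% and 7.77% of all tested features. At that limit 1 was called lower, beside 7.83%, and 2 were called higher in proliferating cells, beside 8.57%. Testing all features with at least 1 count gave 1 member higher with GC7 in the additive model, beside 0.489% of those features. Over all features, the treatment calls of that model were 16 higher and 27 lower, 111 and 79 at a minimum of 1 count, 9 and 8 at a minimum of 400 counts, 30 and 25 under total-count scaling, and 0 and 0 without state in the model. The cause was not tested. No paired analysis was possible because each condition has 1 library, and without any 1 library the 2 comparisons that use it are lost while the other 2 keep their values. The depth limits single members most in OIS cells with DMSO, where the lowest of the 40 had 10 counts.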
